A study of Rattus norvegicus with 18 samples.

Results

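Fluid is kept out of the air spaces of the lung by salt transport across the alveolar epithelium, and 8 genes of that transport were followed here: Scnn1a, Scnn1b, Scnn1g, Atp1b1, Aqp1, Aqp4, Slc12a2 and Nedd4l. They were chosen by symbol as channels, a pump subunit, a cotransporter and a ubiquitin ligase of alveolar fluid clearance, and taken as every probe set on the array whose annotation gave one of these symbols alone. All 8 were on the array, among 10411 genes in all, with 14 probe sets, of which 13 passed the filter on low signal and were tested. Each of the 8 genes had at least 1 tested probe set. Where a gene had several, the one of highest mean represented it, and the others are given beside it.

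Expression was measured in 18 rat lungs on Affymetrix rat 230A arrays, 1 lung per array. Male Sprague-Dawley rats were anesthetized, ventilated through a tracheotomy and opened by a left thoracotomy. The left hilum was clamped for 2 h, which kept that lung warm and without blood flow, and the lung was then reperfused for 30 min (left 30 min, n = 3) or 3 h (left 3 h, n = 3). The right lungs of these rats, never clamped, were taken at the same times (right 30 min and right 3 h, n = 3 each), and 6 normal lungs from 6 rats, taken straight after anesthesia and sacrifice, were controls. The rats' age is not given. All 4 operated groups share the ventilation and thoracotomy, no lung was taken after the clamp alone, and the labels do not give the side of the control lungs. Clamp and side therefore cannot be told apart in left against right, and neither can the operation and the time on the ventilator in any comparison with control. The 4 comparisons with control share the same 6 control lungs. The labels do not say whether each array of an operated group came from its own rat, so p-values measure the spread between these lungs, and their small number limits the precision.

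As background, the alveolar epithelium removes fluid by moving sodium from the air space to the blood side. Sodium enters the cells through the epithelial sodium channel ENaC, made of an alpha, a beta and a gamma subunit (Scnn1a, Scnn1b, Scnn1g), and is pumped out by the Na,K-ATPase, whose beta-1 subunit (Atp1b1) is needed to bring the pump to the membrane. Water follows by osmosis, in part through aquaporins; Nedd4l removes ENaC from the membrane, and the kinase Sgk1 opposes it.

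Across the whole array, the beta-actin 3'/5' signal ratio, a sign of RNA degradation, was 1.309 to 1.781 on 15 arrays, and 4.807, 2.304 and 2.931 in left 30 min replicates 1 and 3 and right 30 min replicate 3. Markers of lung cells were present: 9 of 10 alveolar type I and 10 of 12 alveolar type II genes were on the array, and none of them was below the 5th percentile of all signals in every lung. Cardiac muscle markers, 11 of 12 on the array, summed to 458 to 3748 signal units in the controls, 401.5 to 569.7 in left 3 h and 2296 to 9537 in right 3 h. Neutrophil markers, 7 of 10 on the array, summed to 2553 to 4423 in the controls and to 7117 to 26110 in the operated lungs. In such whole-lung RNA, fewer cells of a type and less RNA per cell cannot be told apart.

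Atp1b1 was the gene that differed most regularly from the controls: its signal was higher in all 12 operated lungs, on both sides and at both times. By comparison, the ENaC subunits passed the test in no group in the main fit. Nedd4l was called higher in the left lungs, close to the threshold and with no left-right difference called. Slc12a2 was called lower in the left lungs at 3 h. Aqp1 was called higher in the right lungs at 3 h on its representative probe set but not on the other. A call here is an adjusted p under 0.05 in limma, with Benjamini-Hochberg adjustment over all 10533 tested probe sets. Values were tested as log2(signal + 25), so fold changes refer to that scale, and the error given with a log2 difference is its standard error from limma. Against control in left 30 min, calls fell on 2 of the 8 genes, both higher, where 18.2% of all 7728 tested genes were called, 8.64% higher and 9.52% lower. In left 3 h 2 were higher and 1 lower, against 37.6% of all genes, 13.5% higher and 24.1% lower. In right 30 min 1 was higher, against 12.3% of all genes, 5.93% higher and 6.33% lower. In right 3 h 2 were higher, against 20.4%, of which 7.75% were higher and 12.6% lower. Of the 13 probe sets 3 were higher and 2 lower in left 30 min, 3 and 1 in left 3 h, 2 and 1 in right 30 min, and 3 and 0 in right 3 h, where 19.9%, 37.8%, 13.4% and 21.4% of all probe sets were called. These shares lie near the background, so the counts are no result about the 8 genes as a set. Among the lower probe sets in left 30 min and right 30 min is Aqp4 1368981_at, which passed the filter only with its controls. The median log2 difference of the 8 genes was 0.05, -0.12, -0.01 and 0.20 in these 4 comparisons, where all genes had -0.06, -0.13, -0.04 and -0.05.

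**Figure D1:**
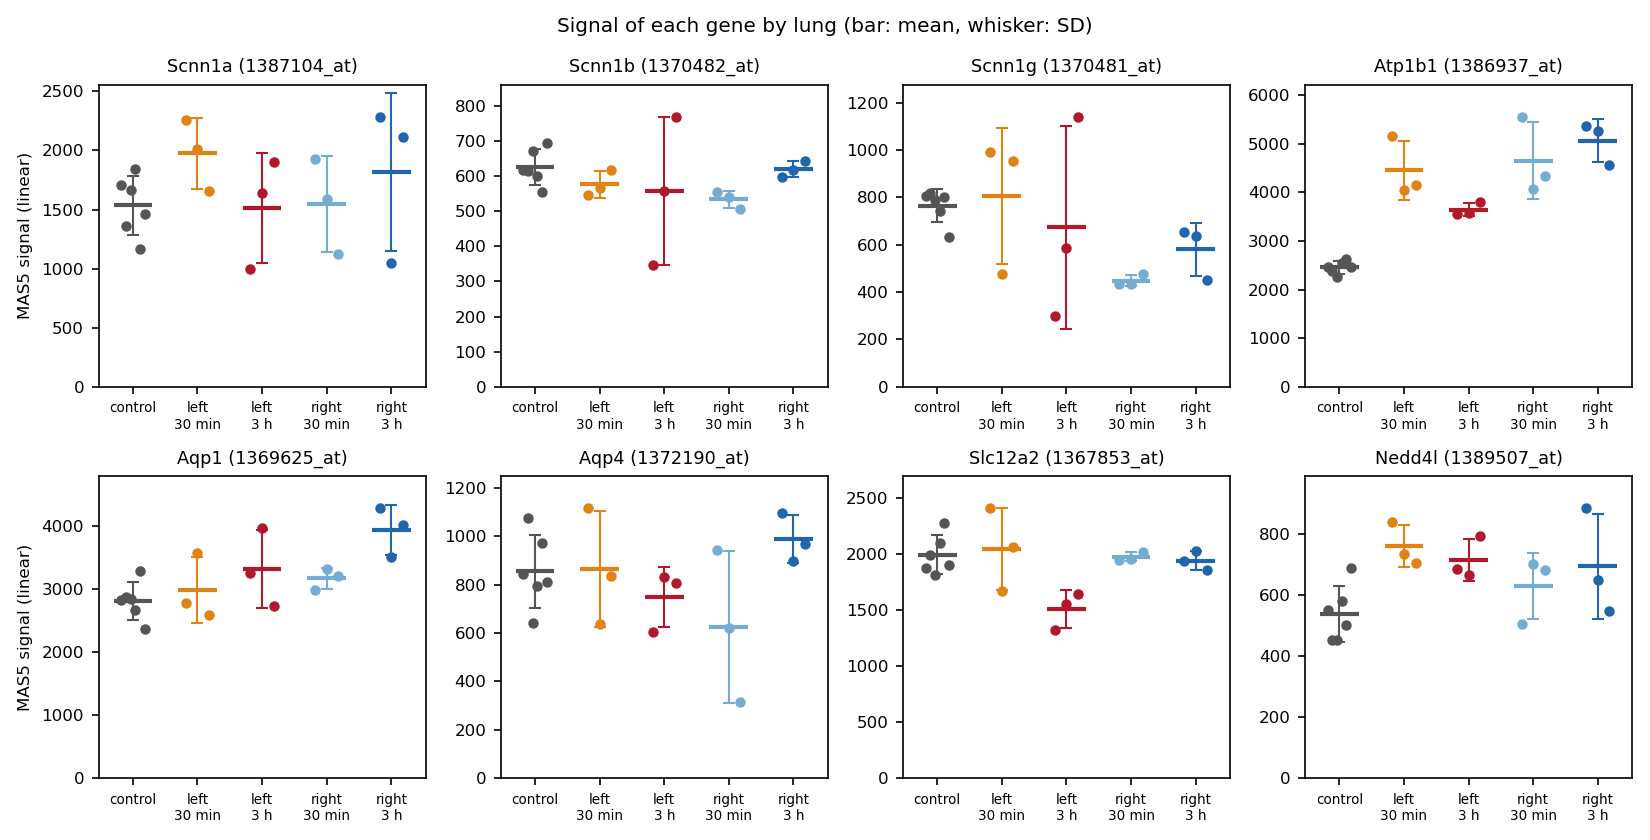
MAS5 signal (linear axis from 0) of the representative probe set of each of the 8 genes in every lung, by group; points are lungs, the bar is the group mean and the whisker the SD. The 12 operated lungs sit between 3548 and 5548 for Atp1b1, all above the controls at 2253 to 2622, while the ENaC subunits overlap the controls in most groups.

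Atp1b1, on probe set 1386937_at, ranged in the controls from 2253 to 2622 signal units, with a median of 2461. Left lungs had 5145, 4046 and 4157 at 30 min and 3548, 3580 and 3804 at 3 h. Right lungs had 5548, 4061 and 4323 at 30 min and 5357, 5259 and 4552 at 3 h. Every operated lung was thus above every control, and the 3 left lungs at 3 h were the lowest operated ones. The group means were 2453 ± 127.9 (SD, n = 6) in the controls, 4449 ± 604.8 (n = 3) and 3644 ± 139.5 (n = 3) in the left lungs at 30 min and 3 h, and 4644 ± 793.5 (n = 3) and 5056 ± 439.4 (n = 3) in the right lungs. Against control the log2 difference was 0.85 ± 0.11 in left 30 min (1.80-fold, limma adjusted p = 7.6e-05). It was 0.57 ± 0.11 in left 3 h (1.48-fold, limma adjusted p = 0.00098). In the unclamped right lungs it was 0.90 ± 0.11 at 30 min (1.87-fold, limma adjusted p = 6.2e-05) and 1.03 ± 0.11 at 3 h (2.05-fold, limma adjusted p = 9.9e-06). The rise was therefore not limited to the clamped lung.

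The second Atp1b1 probe set, 1367814_at, gave the same direction. Its controls ranged from 1644 to 1965 with a median of 1842. The left lungs had 2867, 2576 and 2727 at 30 min and 2306, 2812 and 2766 at 3 h, and the right lungs had 3670, 2886 and 1851 at 30 min and 4454, 3782 and 4291 at 3 h. Right 30 min replicate 3, one of the arrays with a high actin ratio, was the only operated lung within the range of the controls. The log2 differences were 0.58 ± 0.15, 0.53 ± 0.15, 0.57 ± 0.15 and 1.19 ± 0.15 in left 30 min, left 3 h, right 30 min and right 3 h, with limma adjusted p of 0.013, 0.013, 0.021 and 5.1e-05. Several of these calls rested on single lungs: without left 30 min replicate 1 the first had an adjusted p of 0.059, without left 3 h replicate 2 the second had 0.056, and the third had 0.15 without right 30 min replicate 1 and 0.079 without replicate 2. With the 3 arrays of high actin ratio left out, only replicate 2 remained in left 30 min, with a difference of 0.51.

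In order of level, Atp1b1 ran from right 3 h through right 30 min, left 30 min and left 3 h to control. Neighbours among the operated groups did not pass the test: the log2 difference on 1386937_at was 0.13 ± 0.13 for right 3 h over right 30 min (limma adjusted p = 0.69), -0.06 ± 0.13 for left against right at 30 min (0.95) and -0.28 ± 0.13 for left 3 h against left 30 min (0.21). At 3 h the left lungs lay below the right lungs without overlap on both probe sets. The differences were -0.47 ± 0.13 (95% interval -0.74 to -0.20, limma adjusted p = 0.066) and -0.67 ± 0.18 (-1.04 to -0.29, limma adjusted p = 0.059), neither of them called, where 2.37% of all genes were called. A fit with a trended, robust variance called both (limma adjusted p = 0.042 and 0.043).

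The cardiac marker sum also differed between the sides at 3 h, and the heart expresses Atp1b1. The part of cardiac muscle in the Atp1b1 values was not tested, and the values that follow are a description. Among the controls, the lung with the lowest cardiac sum, replicate 5 at 458, had the highest Atp1b1 signal, 2622. Replicate 3, with the highest cardiac sum of 3748, had the lowest, 2253. Other controls did not keep this order: replicate 4, at 3705, had 2539, and replicate 2, at 772.1, had 2380. On 1367814_at replicate 4 was the highest control, at 1965. The left lungs at 3 h had cardiac sums of 496.8, 401.5 and 569.7, within or below the range of the controls, and Atp1b1 was higher in them than in every control. With the cardiac marker mean as a covariate the 4 differences from control on 1386937_at were 0.85, 0.59, 0.90 and 1.02 (limma adjusted p = 0.00021, 0.0047, 0.00015 and 0.00015), and the left-right difference at 3 h was -0.43 (0.49). Over all probe sets, calls in left against right at 3 h fell from 240 to 17 with this covariate, so the larger p there says nothing particular to Atp1b1. Erythroid markers, 4 of 8 on the array, summed to 12420 to 17050 in the controls and 16970 to 24600 in right 30 min. With their mean as a covariate the difference in right 30 min was 1.09 and was no longer called (limma adjusted p = 0.10), while the other 3 calls held. Right 30 min lay apart from all other lungs on this mean, at 10.6 to 11.1 against at most 10.3 on the log2 scale. Over all probe sets, calls in right 30 min fell from 1407 to 4 with this covariate, so the lost call says nothing particular to Atp1b1. Alveolar type II markers summed to 62880 to 67220 in the controls and 40290 to 55460 in left 3 h; their part in the Atp1b1 values was not tested. With the 3 arrays of high actin ratio left out, Atp1b1 was higher than control at 30 min. The difference was 0.72 on the left, where only replicate 2 remained, and 0.95 on the right (limma adjusted p = 0.00051).

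**Figure D2:**
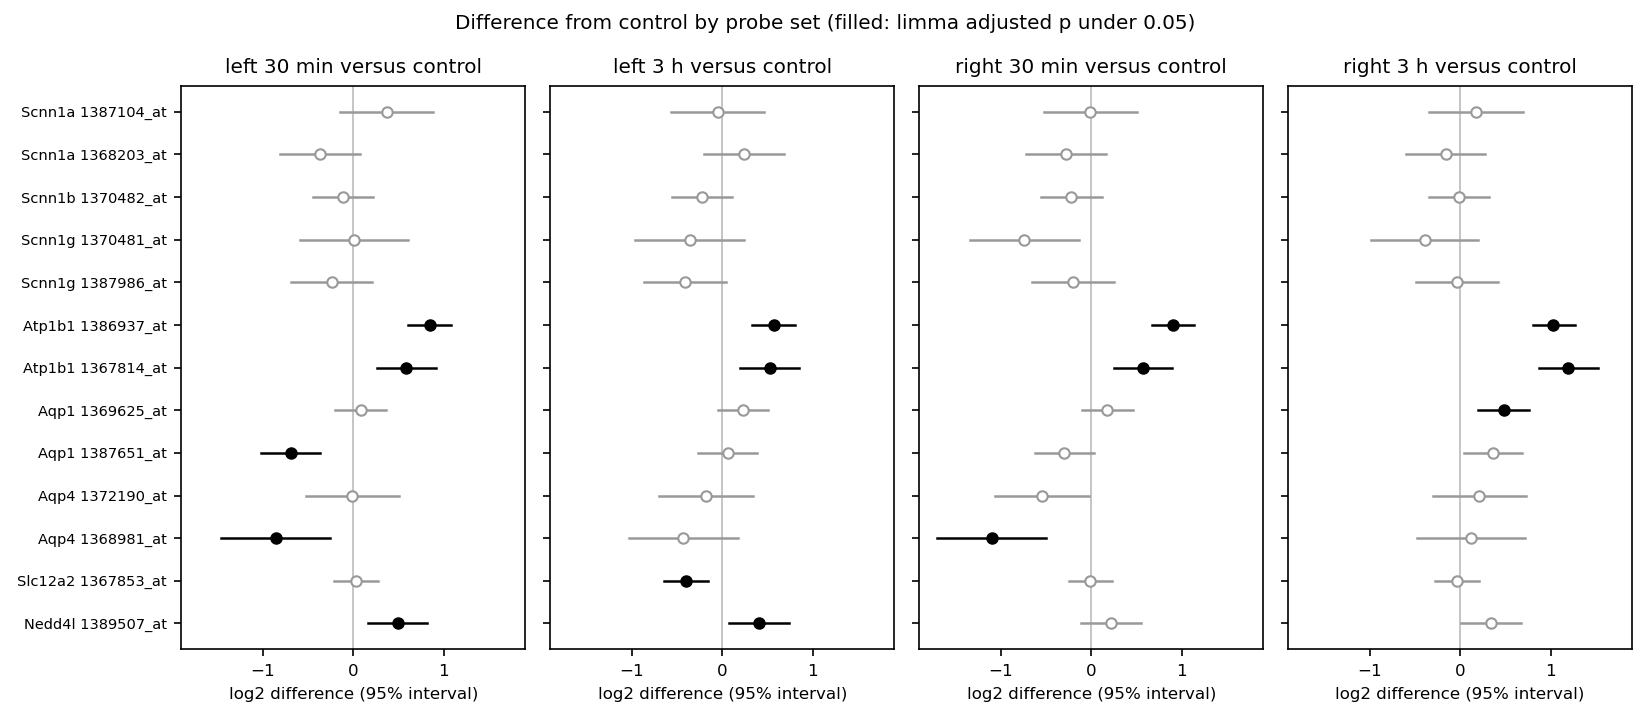
Difference from control on the log2(signal + 25) scale for each of the 13 tested probe sets in the 4 operated groups; points are limma estimates, lines 95% intervals, and filled points have a limma adjusted p under 0.05. Both Atp1b1 probe sets are filled to the right of 0 in every panel, whereas the 5 ENaC probe sets are open throughout. Filled points of Aqp4 1368981_at are a description, as it passed the filter only with its controls.

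Of the other Na,K-ATPase subunits, 6 of 14 listed genes were tested, and no alpha subunit was among them. None was called higher in any group against control; 1 was lower in left 30 min, 3 in left 3 h, 0 in right 30 min and 1 in right 3 h, where 9.52%, 24.1%, 6.33% and 12.6% of all genes were called lower. Atp1b3, the beta-3 subunit, had limma log2 differences of 0.11, 0.18, 0.19 and 0.25 in the 4 groups, in the order left 30 min, left 3 h, right 30 min, right 3 h, none of them called. Fxyd1 (phospholemman), a small regulator of the pump, fell by 0.55 ± 0.13 on the log2 scale in left 30 min (limma adjusted p = 0.0077) and by 0.43 ± 0.13 in left 3 h (0.017). Fxyd3 fell by 0.54 ± 0.17 in left 3 h (limma adjusted p = 0.019). Fxyd6 fell by 0.46 ± 0.14 in left 3 h (limma adjusted p = 0.015) and by 0.46 ± 0.14 in right 3 h (0.025).

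The ENaC subunits showed no call in any of the 9 comparisons in the main fit. Scnn1a, the alpha subunit, without which no working channel forms, ranged in the controls from 1165 to 1842 signal units on 1387104_at, with a median of 1565. It read 2261, 2009 and 1659 in left 30 min, 994.7, 1644 and 1901 in left 3 h, 1928, 1588 and 1122 in right 30 min, and 2284, 1048 and 2116 in right 3 h. Every operated group overlapped the controls. The limma log2 differences were 0.37 ± 0.24, -0.05 ± 0.24, -0.01 ± 0.24 and 0.18 ± 0.24, with adjusted p between 0.31 and 0.99. Their 95% intervals reached from -0.57 at the lowest to 0.88 at the highest, so changes within these bounds are compatible with the data. The other Scnn1a probe set, 1368203_at, had a difference of the opposite sign in left 30 min (-0.37 ± 0.21, limma adjusted p = 0.23).

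Scnn1b, the beta subunit, ranged from 554.5 to 692.5 in the controls, with a median of 616.1. It read 544.9, 564.6 and 618.2 in left 30 min, 346.4, 557.7 and 767.9 in left 3 h, 554.1, 540.3 and 505.1 in right 30 min, and 597.6, 616.7 and 643.1 in right 3 h. The right lungs at 30 min were all below the controls, by a small margin (-0.22 ± 0.16, limma adjusted p = 0.39), and the left lungs at 3 h were scattered both below and above them (-0.22 ± 0.16, 0.28). Scnn1g, the gamma subunit, ranged from 634.8 to 816.8 in the controls on 1370481_at, with a median of 795.1. Its left lungs had 991.9, 475.9 and 953.0 at 30 min and 297.4, 585.6 and 1140 at 3 h, and its right lungs had 435.3, 432.7 and 474.6 at 30 min and 654.4, 635.8 and 453.1 at 3 h. The 3 right lungs at 30 min lay below every control, with a mean of 447.5 ± 23.48 (SD, n = 3) against 764.7 ± 68.91 (SD, n = 6), but the difference of -0.74 ± 0.28 did not pass the test (limma adjusted p = 0.096). The second Scnn1g probe set, 1387986_at, gave -0.20 ± 0.22 there (limma adjusted p = 0.58). Alveolar type I markers summed to 37420, 35390 and 32160 in these 3 lungs, below the controls at 40180 to 42260. Of the 9 tested type I genes 5 were called lower, where 6.33% of all genes were. Their part in the Scnn1g values was not tested.

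Scnn1b and Scnn1g were scattered together in the left lungs at 3 h: replicate 1 was the lowest of the 18 lungs for both, and replicate 3 the highest. The type I marker sum ran the same way, 35280, 40450 and 46860 in replicates 1, 2 and 3, and the neutrophil marker sum the other way, 26110, 16130 and 9210. The part of either cell type in the scatter was not tested. Replicate 3 decided the call in this group: without it the limma log2 differences were -0.48 for Scnn1b (adjusted p = 0.013), -0.83 for Scnn1g on 1370481_at (0.016) and -0.72 on 1387986_at (0.012), all of them called. With all 3 lungs the Scnn1g values were -0.36 ± 0.28 (limma adjusted p = 0.33) and -0.41 ± 0.22 (0.14). Over the 18 arrays log2(signal + 25) of Scnn1b correlated with that of Scnn1g at r = 0.679 on 1370481_at and 0.772 on 1387986_at, and at 0.704 and 0.739 after each group's mean was taken out. The 2 Scnn1g probe sets correlated at 0.775, and at 0.949 after group means were taken out. These lungs share their group, cell makeup and RNA quality, and the correlations are descriptions only.

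**Figure D3:**
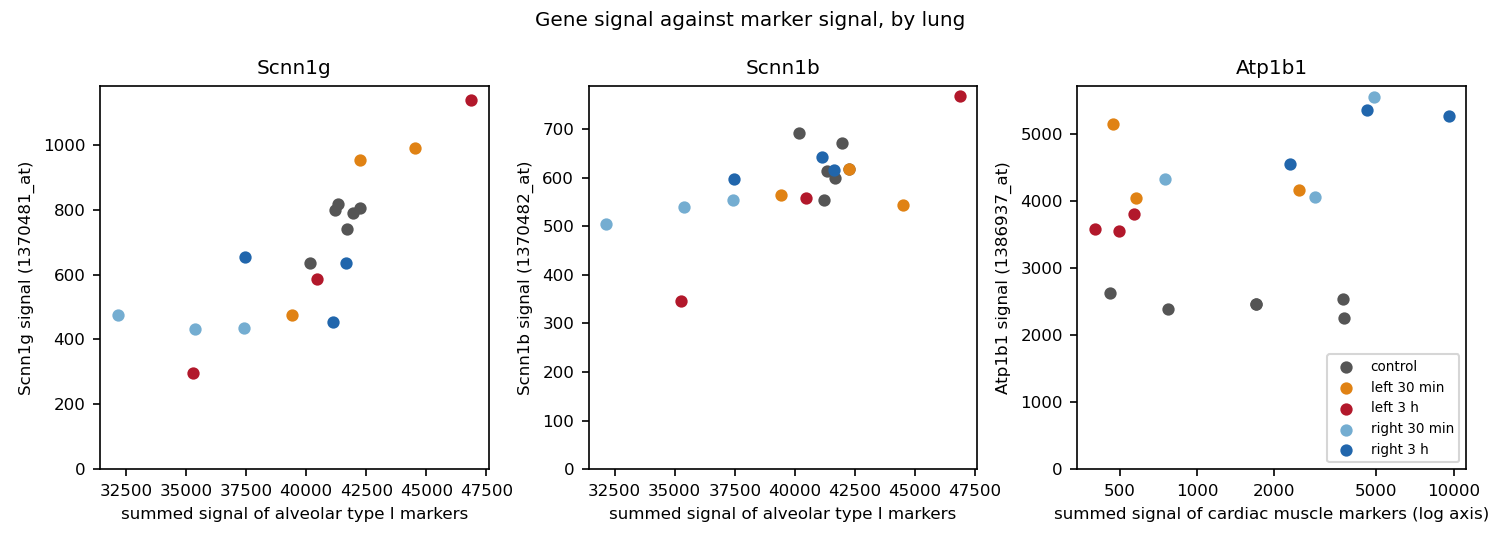
Signal of Scnn1g and Scnn1b against the summed signal of alveolar type I markers, and of Atp1b1 against that of cardiac muscle markers (log axis), 1 point per lung, coloured by group. Left 3 h replicate 1 lies lowest in both ENaC panels, at 297.4 and 346.4, and the controls hold Atp1b1 between 2253 and 2622 over cardiac sums of 458 to 3748.

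Scnn1g and Scnn1b are neighbours in the rat genome. RefSeq places Scnn1g at chr1:185736225-185770099 and Scnn1b at chr1:185861326-185915717 in GRCr8, with annotated starts 125101 bases apart on the plus strand; the array files themselves carry no coordinates. Because these neighbours varied together, 200 bases of the RefSeq promoter window of each are shown, 5' to 3' on the plus strand, in lower case with GGGCGG or its reverse complement CCGCCC, the core of the GC box, in capitals. The Scnn1g stretch is chr1:185735975-185736174, ending 51 bases before the annotated start of the gene, and the Scnn1b stretch is chr1:185861126-185861325, ending 1 base before it.
Scnn1g: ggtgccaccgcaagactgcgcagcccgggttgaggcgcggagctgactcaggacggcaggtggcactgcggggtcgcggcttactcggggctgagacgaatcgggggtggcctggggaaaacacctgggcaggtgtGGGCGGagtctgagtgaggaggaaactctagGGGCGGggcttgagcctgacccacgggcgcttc
Scnn1b: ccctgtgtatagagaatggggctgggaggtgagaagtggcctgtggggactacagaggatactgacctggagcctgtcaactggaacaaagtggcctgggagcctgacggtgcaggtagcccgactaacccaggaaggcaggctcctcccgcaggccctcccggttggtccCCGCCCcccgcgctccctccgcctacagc
The Scnn1g stretch is 68.5% G and C with 2 GC box matches, and the Scnn1b stretch 65.0% with 1. A window of the same length holds this motif on either strand in 25.9% of 27457 rat promoters. AGAACA, one arm of the glucocorticoid response element, or its reverse complement TGTTCT, is in 13.9% of them and had 0 matches in both stretches, which says only that these letters are not in these windows. Of the 8 genes, 6 had a promoter entry; Scnn1a and Atp1b1 had none.

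Nedd4l, the ubiquitin ligase that marks ENaC for removal, ranged in the controls from 451.9 to 689.4 signal units, with a median of 527.3. The left lungs had 838.9, 735.6 and 707.0 at 30 min and 685.8, 666.9 and 793.4 at 3 h, and the right lungs 505.8, 703.1 and 681.9 at 30 min and 884.5, 651.0 and 549.0 at 3 h. Only left 30 min was free of overlap with the controls. The log2 difference was 0.49 ± 0.16 in left 30 min (1.41-fold, limma adjusted p = 0.035) and 0.41 ± 0.16 in left 3 h (1.32-fold, limma adjusted p = 0.0498). In the right lungs it was 0.22 ± 0.16 (limma adjusted p = 0.38) and 0.34 ± 0.16 (0.13), and left against right gave 0.27 ± 0.18 at 30 min (limma adjusted p = 0.70) and 0.06 ± 0.18 at 3 h (0.88). The 2 calls lay close to the threshold. Leaving out 1 array at a time ended the first for 7 of 9 arrays and the second for 8 of 9. With the 3 arrays of actin ratio over 2 left out, the difference in left 30 min was 0.45, on replicate 2 alone.

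Among 23 listed genes that act on ENaC, 19 were tested. Against control 2 were higher and 2 lower in left 30 min, 4 and 7 in left 3 h, 3 and 3 in right 30 min, and 3 and 3 in right 3 h, where 18.2%, 37.6%, 12.3% and 20.4% of all genes were called. Sgk1, the kinase that holds Nedd4l back, had mean signals of 1600 ± 120 (SD, n = 6) in the controls, 2560 ± 329 and 2590 ± 75.6 (n = 3 each) in the left lungs and 2360 ± 36.4 and 2220 ± 173 (n = 3 each) in the right lungs. Its log2 differences were 0.67 ± 0.10, 0.69 ± 0.10, 0.56 ± 0.10 and 0.47 ± 0.10, with limma adjusted p of 0.00022, 7.7e-05, 0.0013 and 0.0032 in left 30 min, left 3 h, right 30 min and right 3 h. Sgk1 thus rose in every operated group, as Atp1b1 did. Nr3c1, the glucocorticoid receptor, fell in all 4 groups, by 0.38 ± 0.13, 0.52 ± 0.13, 0.52 ± 0.13 and 0.49 ± 0.13 (limma adjusted p = 0.048, 0.0049, 0.014 and 0.012). The mineralocorticoid receptor Nr3c2 fell by 0.64 ± 0.17 in left 3 h (limma adjusted p = 0.0062).

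Usp2, a deubiquitinase, is counted as higher in both left groups and in right 30 min, but its controls, at 128.2 to 166.8, all lay under the filter at 173.6, so it was tested only because operated lungs were high and no test is given. Prss8 (prostasin), a protease that activates ENaC, fell by 0.45 ± 0.13 in left 30 min (limma adjusted p = 0.02) and by 0.48 ± 0.13 in right 30 min (0.021). Grk2, a kinase that turns off beta-adrenergic receptors, fell by 0.64 ± 0.13 in left 3 h (limma adjusted p = 0.0013), 0.52 ± 0.13 in right 30 min (0.015) and 0.41 ± 0.13 in right 3 h (0.035). Hsd11b2, which inactivates glucocorticoid, fell by 0.45 ± 0.14 in right 3 h (limma adjusted p = 0.031).

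Aqp1, the water channel of lung capillary endothelium and red cells, ranged in the controls from 2357 to 3275 signal units on 1369625_at, with a median of 2833. Its left lungs had 2774, 3573 and 2582 at 30 min and 3253, 3953 and 2729 at 3 h, and its right lungs 2983, 3305 and 3209 at 30 min and 4271, 3505 and 4011 at 3 h. The right lungs at 3 h were above every control, at 3929 ± 389.2 (SD, n = 3) against 2807 ± 298.9 (SD, n = 6), and the other groups overlapped them. The log2 difference in right 3 h was 0.48 ± 0.13 (1.40-fold, limma adjusted p = 0.016). Without right 3 h replicate 1 it was 0.42 (limma adjusted p = 0.071), and without replicate 3 it was 0.47 (0.058). The erythroid marker sum was 16330, 15960 and 21300 in these lungs, and 18640, 16970 and 24600 in right 30 min, where Aqp1 was not called (0.18 ± 0.13, limma adjusted p = 0.41). With the erythroid marker mean as a covariate the right 3 h difference was 0.44 (limma adjusted p = 0.074).

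The other Aqp1 probe set, 1387651_at, behaved differently at 30 min. Its controls ranged from 1508 to 1900, with a median of 1625, and its left lungs had 750.5, 1399 and 1018 at 30 min and 1656, 2088 and 1513 at 3 h. The right lungs had 1423, 1432 and 1219 at 30 min and 2304, 1994 and 2154 at 3 h. In right 3 h the log2 difference from control was 0.36 ± 0.15 and was not called (limma adjusted p = 0.11). Left and right lungs at 30 min were below every control, left lungs at 3 h overlapped them, and right lungs at 3 h were above every control. In right 30 min the log2 difference from control was -0.30 ± 0.15 and was not called (limma adjusted p = 0.21). The log2 difference was -0.69 ± 0.15 in left 30 min (1.62-fold lower, limma adjusted p = 0.0045), and left 3 h exceeded left 30 min by 0.75 ± 0.18 (limma adjusted p = 0.033), a comparison in which 3.47% of all probe sets were called. The lung with the lowest value, left 30 min replicate 1, also had the highest actin ratio, 4.807. With the 3 arrays of actin ratio over 2 left out, the difference in left 30 min was -0.25, on replicate 2 alone. With the ratio as a covariate it was -0.30 (limma adjusted p = 0.16). Left 3 h against left 30 min was 0.31 and 0.42 in these fits, the latter with a limma adjusted p of 0.25. Without left 30 min replicate 1 alone it was 0.53 (limma adjusted p = 0.17).

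The ratio of the 2 probe sets of a gene was also taken within each lung. For Aqp1 the signal of 1369625_at over that of 1387651_at was 1.49 to 1.89 in the controls and 3.70, 2.56 and 2.54 in left 30 min. It was 1.80 to 1.96 in left 3 h and 1.76 to 1.86 in right 3 h, but 2.10, 2.31 and 2.63 in right 30 min. For Scnn1a the signal of 1387104_at over 1368203_at was 3.28 to 4.31 in the controls and 9.22, 5.56 and 5.34 in left 30 min. It was 2.58 to 3.54 in left 3 h. In the right lungs it was above every control as well, at 4.47 to 5.0 at 30 min and 4.6 to 5.41 at 3 h. Left 30 min replicate 1 had the highest ratio for both genes. Left 30 min replicate 2, with an actin ratio of 1.533, had 2.56 and 5.56, also above every control. The part of RNA quality in these ratios was not tested. The positions of these probe sets along the transcripts were not used here, and unequal change of the probe sets does not show which of them follows the gene.

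**Figure D4:**
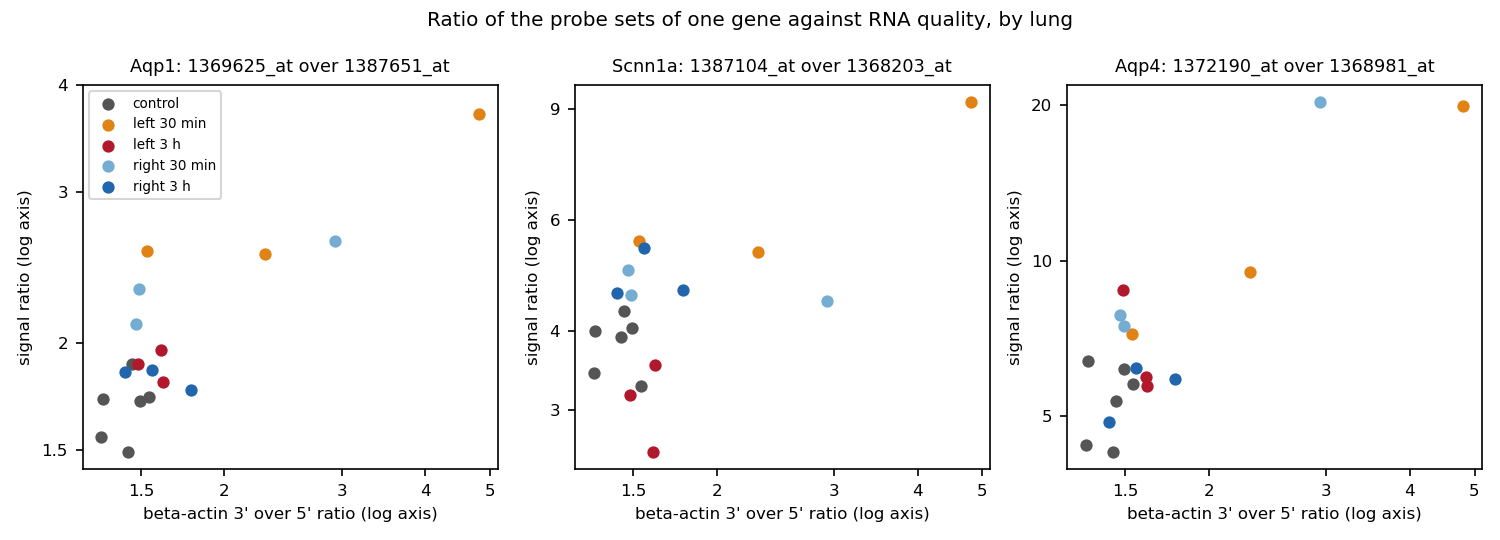
Signal ratio of a pair of probe sets of Aqp1, Scnn1a and Aqp4 in each lung against that lung's beta-actin 3'/5' ratio, both on log axes, coloured by group. The point farthest to the right in each panel is left 30 min replicate 1, at an actin ratio of 4.807 and probe set ratios of 3.70, 9.22 and 19.9.

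Aqp4, a water channel of airway and alveolar type I epithelium in the rat lung, ranged in the controls from 640.9 to 1075 on 1372190_at, with a median of 826.4. It read 1115, 637.6 and 836.0 in left 30 min, 605.6, 833.2 and 807.1 in left 3 h, 942.7, 619.4 and 315.8 in right 30 min, and 1094, 899.3 and 969.0 in right 3 h. All groups overlapped the controls and none was called. The largest difference was -0.54 ± 0.25 in right 30 min (limma adjusted p = 0.16), where replicate 3, of high actin ratio, was the lowest lung. The dimmer probe set 1368981_at is counted as lower in left 30 min and in right 30 min, with log2 differences of -0.86 ± 0.28 and -1.10 ± 0.28. Of the 4 arrays that carried this probe set past the filter 3 were controls, so its lower values elsewhere are a description and no test is given. Its controls ranged from 120.0 to 192.2, and the 30 min lungs had 56.04, 88.65 and 88.19 on the left and 120.2, 83.01 and 15.57 on the right. On left 30 min replicate 2 alone, the only lung of that group with an actin ratio under 2, the log2 difference was -0.70. In right 30 min it was -0.56 once replicate 3, of high actin ratio, was dropped. Its place in the count of lower probe sets in left 30 min was lost on leaving out any one of 7 of the 9 arrays compared. The third Aqp4 probe set, 1387397_at, did not pass the filter, with signals of 6.116 to 107.3.

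Of 8 other listed aquaporins, 3 were tested. Aqp5, the water channel of the type I cell surface, fell by 0.80 ± 0.20 in right 30 min (limma adjusted p = 0.014) and by 0.66 ± 0.20 in right 3 h (0.026). Aqp3, a water and glycerol channel, had a mean signal of 5.99 ± 1.58 (SD, n = 6) in the controls, signals of 151.4 to 183.4 (n = 3) in left 30 min and a mean of 102 ± 87.4 (SD, n = 3) in right 3 h. It passed the low-signal filter only through operated lungs, and its controls were all under 8.816, the 5th percentile over the array, so these values are a description with no fold and no test.

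Slc12a2, the sodium-potassium-chloride cotransporter NKCC1 that loads chloride into cells for secretion, ranged in the controls from 1818 to 2284 signal units, with a median of 1950. The left lungs had 2410, 1674 and 2064 at 30 min and 1322, 1556 and 1650 at 3 h, and the right lungs 1949, 1962 and 2025 at 30 min and 1939, 2028 and 1861 at 3 h. The 3 left lungs at 3 h were the lowest of all 18, at 1509 ± 168.9 (SD, n = 3) against 1996 ± 172.1 (SD, n = 6) in the controls, and the right lungs stayed within the range of the controls. The log2 difference in left 3 h was -0.40 ± 0.11 (1.32-fold lower, limma adjusted p = 0.011). The median of all genes was itself -0.13 in this comparison, and after median centring of the arrays Slc12a2 was -0.24 and not called (limma adjusted p = 0.13). Without left 3 h replicate 1 it was -0.31 (limma adjusted p = 0.089). The left lungs at 3 h also differed from the right lungs by -0.36 ± 0.13 (limma adjusted p = 0.16) and from left 30 min by -0.43 ± 0.13 (0.077), without overlap but not called. Alveolar type II markers were lower in the same 3 lungs, where 6 of 10 were called lower, against 24.1% of all genes. Their median log2 difference was -0.38, and their part in the Slc12a2 values was not tested.

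Among 32 other listed genes of chloride, potassium and proton transport, 18 were tested. Against control 4 were higher and 3 lower in left 30 min, 4 and 3 in left 3 h, 3 and 0 in right 30 min, and 4 and 2 in right 3 h, beside 18.2%, 37.6%, 12.3% and 20.4% of all genes. Slc4a7, a sodium-bicarbonate cotransporter, rose in all 4 groups, by 1.11 ± 0.13, 1.18 ± 0.13, 0.89 ± 0.13 and 0.62 ± 0.13 on the log2 scale (limma adjusted p = 1.8e-05, 5.7e-06, 0.00022 and 0.0028). Kcnj15, an inward rectifier potassium channel, rose by 0.88 ± 0.19 in left 30 min (limma adjusted p = 0.0036), 0.79 ± 0.19 in right 30 min (0.012) and 0.79 ± 0.19 in right 3 h (0.0068), and in left 3 h it was lower than in right 3 h by 1.07 ± 0.22 (limma adjusted p = 0.016). Clic4, a chloride intracellular channel protein, rose in all 4 groups, by 0.42 ± 0.14, 0.87 ± 0.14, 0.63 ± 0.14 and 0.69 ± 0.14 (limma adjusted p = 0.039, 0.00017, 0.0065 and 0.0021). Kcnk1, a potassium leak channel, rose by 0.45 ± 0.16 in left 3 h (limma adjusted p = 0.032) and 1.02 ± 0.16 in right 3 h (0.00027). Slc4a2, an anion exchanger, fell by 0.31 ± 0.10 in left 30 min (limma adjusted p = 0.038), 0.50 ± 0.10 in left 3 h (0.001) and 0.53 ± 0.10 in right 3 h (0.0014).

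Tight junctions decide how much fluid leaks back, and 7 of 12 listed genes were tested: 1 was higher in left 30 min, 1 higher and 2 lower in left 3 h, 1 lower in right 30 min, and 1 higher and 2 lower in right 3 h. Of all genes 18.2%, 37.6%, 12.3% and 20.4% were called in these groups. Cldn4, a sealing claudin of the alveolar epithelium, had mean signals of 104 ± 39.1 (SD, n = 6) in the controls, 257 ± 50.8 (SD, n = 3) in left 30 min and 477 ± 159 (SD, n = 3) in left 3 h. All its controls lay under the filter at 173.6, so it was tested only because operated lungs were high, and its values are a description; it is the gene counted as higher in both left groups. Tjp1, the scaffold protein ZO-1, fell by 0.52 ± 0.12 in left 3 h, 0.37 ± 0.12 in right 30 min and 0.70 ± 0.12 in right 3 h (limma adjusted p = 0.0029, 0.0464 and 0.00059). Tjp1 was not alone in falling. F11r, also on this list, had signals of 4335 to 5319 in the controls, 2734 to 3865 in left 3 h and 3496 to 3657 in right 3 h. The gene counted as higher in right 3 h is not named here.

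No difference between left and right lungs passed the test in the 8 genes, at 30 min or at 3 h. By limma, 0 of 8 were called at 30 min, where 0.0518% of all genes were called, and 0 of 8 at 3 h, where 2.37% were; at an unadjusted p under 0.05 the numbers were 1 and 2. Between the times, 0 of 8 were called in the left lungs (3.07% of all genes) and 0 in the right lungs (0.194%), with 2 and 1 at an unadjusted p under 0.05. The change of the left-right difference from 30 min to 3 h was called in 0 of 8 (0.233% of all genes), with 3 at an unadjusted p under 0.05: Atp1b1 at -0.41 ± 0.18, Aqp4 at -0.93 ± 0.40 and Slc12a2 at -0.40 ± 0.19 (limma adjusted p = 0.67, 0.66 and 0.70). Of all 10533 tested probe sets, 905 and 1842 had an unadjusted limma p under 0.05 in left against right at 30 min and 3 h. Between the times it was 2337 on the left and 1432 on the right, and 740 for the change. Of the 13 probe sets, 0 were called in left against right at 30 min (0.038% of all probe sets) and at 3 h (2.28%), 1 in left 3 h against left 30 min (3.47%), 0 in right 3 h against right 30 min (0.199%) and 0 in the change (0.228%). The intervals leave room for sizeable differences; that of Scnn1a for left against right at 3 h, for example, ran from -0.83 to 0.36.

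The genes whose log2(signal + 25) followed each of the 8 most closely over the 18 arrays, among 7727 other genes, are given as a description. Atp1b1 was followed most closely of the 8, by Fkbp5 (r = 0.948), Pxdc1 (0.938) and Slc7a6 (0.913). Scnn1g was nearest to Emp2 (0.890), Eps8l2 (0.823) and Cyb5r3 (0.794), and Scnn1b to Dync2li1 (0.821), Suox (0.799) and Ankh (0.793). Scnn1a was nearest to P2ry14 and Slc25a10 (both 0.780) and Ncdn (0.752). Aqp1 was nearest to Tcn2 (0.867), Cp (0.855) and Ifitm2 (0.852), and Aqp4 to Mon1a (0.840), Ireb2 (0.797) and Timp2 (0.751). Slc12a2 was nearest to Tmem178a (0.870), Akap7 (0.866) and Gstk1 (0.864), and Nedd4l to Zcchc8 (0.844), Susd6 (0.756) and Slc17a5 (0.739).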

How the data were processed

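The authors deposited probe set signals of 18 1-colour Affymetrix rat 230A arrays as linear intensity, made with MAS5 per the submitters' processing notes (no version is named); the values show scaling of each array to a 2% trimmed mean of 500.08 to 500.11. The design text names GeneSpring 7.2 for later analysis, which the deposited intensity values do not include. From 15923 probe sets, 57 control probe sets were left out, and 10533 with at least 3 arrays above the 40th percentile (173.6) were tested as log2(signal + 25). The platform annotation of 2016 named 12783 probe sets by 1 symbol, 312 by several and 2771 by none; RefSeq (GRCr8) changed 0 symbols. Lungs were grouped by their titles.

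Testing used limma 3.58.1 under R 4.3.3 (lmFit and eBayes on 5 group means, two-sided, Benjamini-Hochberg) and checked on simulated data; tables and figures used Python 3.11.15, numpy 2.4.6, pandas 2.3.3 and matplotlib 3.10.9. The members, gene lists, marker lists and tests were chosen with earlier results of these data known. All 8 members are named. From each list, up to 4 called genes of smallest adjusted p per comparison are named, or all where at most 5 were called. The tight junction gene higher in right 3 h is an exception and is not named. For likeness, the 3 genes of highest correlation are given. Alternatives were the pseudocount, filter, normalization, variance model, samples in the fit, replicate number, actin ratio and leaving out each array; marker means as covariates were added after seeing the data. Left and right lungs came from the same rats, but the labels do not tie numbers to rats, so no pairing was used in the main comparisons; same-numbered lungs deviated together at 30 min (correlations of 0.12, 0.31 and 0.15) and not at 3 h.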

Additional observations from a re-analysis of the deposited data

How the results depend on the processing

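Of 16 called member values, the Atp1b1 differences on 1386937_at in left 3 h and right 3 h were called under all 13 alternatives and with each of 9 arrays left out. That in left 30 min was called with each of 9 arrays left out and under every alternative that kept more than replicate 2 in its group. In left 30 min, 2 of the 8 genes were called, but 1 without the filter, or with the actin ratio or cardiac marker mean as a covariate. Leaving out 1 array gave 1 to 2. In left 3 h, 3 genes were called, but 2 with a pseudocount of 5, without the filter or after median centring. The count was also 2 with the actin ratio, the cardiac marker mean or the erythroid marker mean as a covariate. Leaving out 1 array gave 1 to 4. In right 30 min, 1 gene was called, but 2 in a fit of only the groups compared, the added gene not being named here, and 0 with the erythroid marker mean. With that mean only 4 probe sets of the whole array were called there, as it followed the group. Leaving out 1 array gave 1 to 2. In right 3 h, 2 were called, but 1 after quantile normalization or with the erythroid marker mean, and 3 after median centring or in a fit of only the groups compared. Leaving out 1 array gave 1 to 2. Left against right at 3 h gave 0, but 1 with the trended, robust variance, and 0 to 1 without 1 array, as did left 3 h against left 30 min. Aqp4 on 1368981_at in right 30 min, a description only, was 0.31 with the erythroid marker mean, the 1 called value that changed sign. The cause was not tested in any of these cases.

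With the replicate number as a replicate block, 1 member gene was called in left 30 min, 2 in left 3 h and 1 in right 3 h. Over all probe sets the block gave 947, 2561, 415 and 952 calls against control in left 30 min, left 3 h, right 30 min and right 3 h, in place of 2099, 3977, 1407 and 2255. Left against right gave 0 and 15 in place of 4 and 240, the change of that difference 4 in place of 24, left 3 h against left 30 min 60 in place of 366, and right 3 h against right 30 min 5 in place of 21. Without the filter 138 probe sets were called in left against right at 3 h, 192 in left 3 h against left 30 min and 10 in right 3 h against right 30 min. A fit of only the groups compared called 27, 27 and 0 there. Leaving out the arrays of actin ratio over 2 left only replicate 2 in left 30 min, so counts of calls for that group are not given. Deviations from group means correlated between same-numbered left and right lungs at 0.12, 0.31 and 0.15 at 30 min and at -0.17, 0.07 and -0.15 at 3 h, so the numbers were not taken to pair lungs at 3 h; at 30 min every same-numbered pair was over 0.1, and left against right there gave 0 member genes with the block and without it. Control lungs share no rat with the others, and in comparisons with them the number is only a term: with it Nedd4l in left 30 min was 0.63 (limma adjusted p = 0.0524), Slc12a2 in left 3 h -0.33 (0.12) and Aqp1 in right 3 h 0.46 (0.081). Signals of 3 lungs a group, and probe sets near background such as those of Aqp4 and Aqp3, limit what these arrays can show.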
